A study of Mus musculus with 2 samples.

Results

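The genes described here are 44 mouse genes of the cell cycle and of DNA replication, followed through single CD4 T cells. They were listed by name and looked up in the deposited table, in which 44 of 44 had a row and 0 were absent, among 12432 genes in all. By role they fell into 18 DNA replication genes, 9 mitotic genes, 5 G1 cyclins and kinases, 9 genes of chromatin and the cytoskeleton, and 3 genes of nucleotide supply and nuclear transport. Spleens and peripheral lymph nodes were the source of the cells, taken from C57BL/6 mice that carried a recombinant Candida albicans, a gut fungus, expressing the model antigen 2W1S, and FACS had enriched the cells that recognise 2W1S. Each was captured on a Fluidigm C1 instrument and read with SMART-Seq v4 chemistry, which covers whole transcripts and adds no molecular identifiers. A March capture of 82 cells and an April capture of 96 cells carried the same treatment label, CA-2W1S colonization, so they are 2 replicates of 1 group, each with 2 runs (Mar1 with 25 and Mar17 with 57 cells, Apr13 with 48 and Apr21 with 48 cells). The labels give the month only. Capture is the name used here for the cells of a month, and run for the tag in a cell's name. Whether each run was a C1 capture of its own is not stated. Whether cells of 1 or several mice were pooled is not stated, so the spread behind a p-value here may be technical. That spread is no more than how far differences between classes of cells disagreed between 2 captures, largely shared over genes. All mice were colonized, and cells of uncolonized mice were not analysed here.

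Among T cell markers, Cd3d, Cd3g and Trbc2 were present in 100% of cells and Cd4 itself in 70.8%. A gene is called present in a cell at a linear value of 1 or above. Linear values are the deposited log2 values raised back, which sum to between 892206 and 979888 per cell, as TPM-like values would; a level is therefore relative to the other RNA of the same cell, and the number of reads behind it is unknown. The median cell had 5068.5 genes above 0 (2927 to 6990). In 3 cells of run Mar1 mitochondrial genes held over 50% of the signal, and these cells had 2 to 4 DNA replication genes present.

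A resting T cell sits outside the cycle. After antigen it passes G1 under D-type cyclins with Cdk4 and Cdk6, and cyclin E with Cdk2 then releases the E2F transcription factors, which turn on the genes of DNA synthesis. In S phase the MCM helicase unwinds DNA, the clamp Pcna holds the polymerases, and ribonucleotide reductase (Rrm1 with Rrm2) and thymidylate synthase (Tyms) supply the building blocks. Genes of G2 and mitosis, such as Cdk1, Ccnb2, Top2a and Mki67, follow under the DREAM and MuvB complexes, which bind the cell cycle homology region, or CHR, in their promoters. Klf2, named in the title of the series, is a transcription factor tied to quiescence and recirculation of T cells.

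Promoter letters linked to these waves were looked up in RefSeq windows (GRCm38.p6) from 250 bases before to 50 bases after each gene's start, on both strands. They were E2F-type letters (TTTCCCGC, TTTCGCGC, TTTGCCGC or TTTGGCGC, which can overlap each other on opposite strands) and the CHR letters TTTGAA. A window was found for 38 of the 44 genes. E2F-type letters were in 6 of 16 DNA replication windows (37.5%) and in 1 of 7 mitotic windows (14.3%), against 2.61% of the 27025 genes with a window. CHR letters were in 5 of 7 mitotic windows (71.4%) and in 3 of 16 DNA replication windows (18.8%), against 20.2% of all genes. In the chromatin and cytoskeleton windows E2F-type letters were in 0 of 8 and CHR letters in 1 of 8 (12.5%), that of Hmgb2. Hmgn2, Pcna and Rrm2 had neither, and Stmn1 had no window. The 170 bases before the start are shown for genes that carry those letters and on which the results below turn, with the letters in capitals: the helicase subunits Mcm5 and Mcm6, the mitotic genes Cdk1, Mki67 and Top2a, and the chromatin protein Hmgb2. The stretches lie at chr8:75109339-75109508 (plus strand), chr1:128359706-128359875 (minus), chr10:69352913-69353082 (minus), chr7:135716380-135716549 (minus), chr11:99024190-99024359 (minus) and chr8:57511673-57511842 (plus), each given 5′ to 3′ along its gene.
Mcm5: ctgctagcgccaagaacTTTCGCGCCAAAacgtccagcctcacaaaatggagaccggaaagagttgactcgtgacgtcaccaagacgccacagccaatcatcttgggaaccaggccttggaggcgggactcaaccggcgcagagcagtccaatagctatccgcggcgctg
Mcm6: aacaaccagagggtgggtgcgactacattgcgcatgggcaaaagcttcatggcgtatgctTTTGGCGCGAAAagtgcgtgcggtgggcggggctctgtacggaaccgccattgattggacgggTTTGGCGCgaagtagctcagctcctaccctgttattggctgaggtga
Cdk1: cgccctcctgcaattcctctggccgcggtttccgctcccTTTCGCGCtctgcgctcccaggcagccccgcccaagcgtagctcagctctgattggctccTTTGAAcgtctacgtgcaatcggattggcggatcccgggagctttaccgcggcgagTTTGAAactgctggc
Mki67: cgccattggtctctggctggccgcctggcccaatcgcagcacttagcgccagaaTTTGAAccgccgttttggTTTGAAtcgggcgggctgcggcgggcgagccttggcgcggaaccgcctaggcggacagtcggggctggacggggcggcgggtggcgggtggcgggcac
Top2a: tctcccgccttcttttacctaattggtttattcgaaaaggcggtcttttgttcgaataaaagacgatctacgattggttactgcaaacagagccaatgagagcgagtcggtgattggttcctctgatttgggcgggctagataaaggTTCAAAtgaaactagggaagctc
Hmgb2: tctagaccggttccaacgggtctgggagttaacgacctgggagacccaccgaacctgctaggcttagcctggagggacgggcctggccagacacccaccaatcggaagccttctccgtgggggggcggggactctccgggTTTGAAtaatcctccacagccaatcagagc
The Mcm5 stretch holds a forward and a reverse E2F-type match that overlap, with first bases 153 and 149 bases before the start, and Mcm6 holds such an overlapping pair at 110 and 106 and a further match at 47. Cdk1 holds an E2F-type match at 131 and CHR letters at 71 and 15. Mki67 has CHR letters at 116 and 98, Top2a at 23 and Hmgb2 at 30. These are matches of letters and not measured binding.

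Most DNA replication genes were present in a minority of the cells. Over the 18 genes the median share of cells was 21.6%, against 16.9% over all genes of the table. Tyms was the most widespread at 75.3% of cells, followed by Rpa2, a subunit of the single-strand binding protein RPA, at 71.9% and Pcna at 46.1%. At a linear value of 10 or above Rpa2 led Tyms, at 42.7% against 35.4% of cells. The helicase subunits were present in 11.2% (Mcm2), 20.8% (Mcm3), 34.3% (Mcm4), 23.6% (Mcm5), 17.4% (Mcm6) and 22.5% (Mcm7) of cells. Lig1, which seals Okazaki fragments, was present in 29.8%, Dut, which keeps uracil out of DNA, in 27.0%, and the small RPA subunit Rpa3 in 25.3%. The clamp loader subunit Rfc2 was present in 15.7%, the polymerase delta subunit Pold4 in 12.9%, the flap nuclease Fen1 in 10.1%, and the reductase subunits Rrm1 and Rrm2 in 10.7% and 15.7%. The maintenance methyltransferase Dnmt1 was the rarest of the group, at 8.43% of cells (exact 95% interval 4.79% to 13.5%). The 2 captures gave close shares for most of these genes, with median shares of 21.3% in March and 21.4% in April. The widest gap was at Mcm4, 43.9% of March cells and 26.0% of April cells. Mcm2 was present in 0 of the 25 cells of run Mar1.

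The mitotic genes divided sharply by share. Smc4, a condensin subunit, was present in 100% of cells, Top2a, the topoisomerase that untangles chromosomes, in 48.3%, Birc5 (survivin) in 47.2%, the ubiquitin ligase G2e3 in 43.3% and the condensin subunit Smc2 in 31.5%. The proliferation marker Mki67 and the cyclins Ccnb2 and Ccna2 were each present in 5.06% of cells, which is 9 of 178, and their kinase Cdk1 in 12.4%. Cdk1 was present in 4.88% of March cells and 18.8% of April cells. Ccna2 lies over Exosc9 on the opposite strand, and the sources used here do not state whether reads were assigned by strand.

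Among the G1 genes, cyclin D2 (Ccnd2) and its kinase Cdk4 were each present in 65.2% of cells, Cdk2 in 18.5% and Cks1b, a small adaptor of cyclin-dependent kinases, in 11.8%. Cyclin D3 (Ccnd3) was the rarest of the 44 genes, at 2.81%. The chromatin and cytoskeleton genes were the most widespread group, with a median share of 65.7%. Tubb5 (beta tubulin) was present in 100%, the chromatin proteins Hmgb1 in 99.4%, H2afz in 89.3%, Hmgn2 in 65.7% and Hmgb2 in 64.6%, the alpha tubulins Tuba1b and Tuba1a in 70.2% and 54.5%, the histone chaperone Anp32b in 53.4%, and the microtubule-destabilizing protein Stmn1 in 24.7%. Ran, the GTPase of nuclear transport, and Nme1, a nucleoside diphosphate kinase, were each present in 52.8% and Nme2 in 72.5%. Nme1 and Nme2 share the overlapping gene Gm20390, Tuba1a and Tuba1b are near-identical copies, and Hmgb1 and Hmgn2 have processed copies in the genome, so reads of these genes can have been split between copies.

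**Figure D1:**
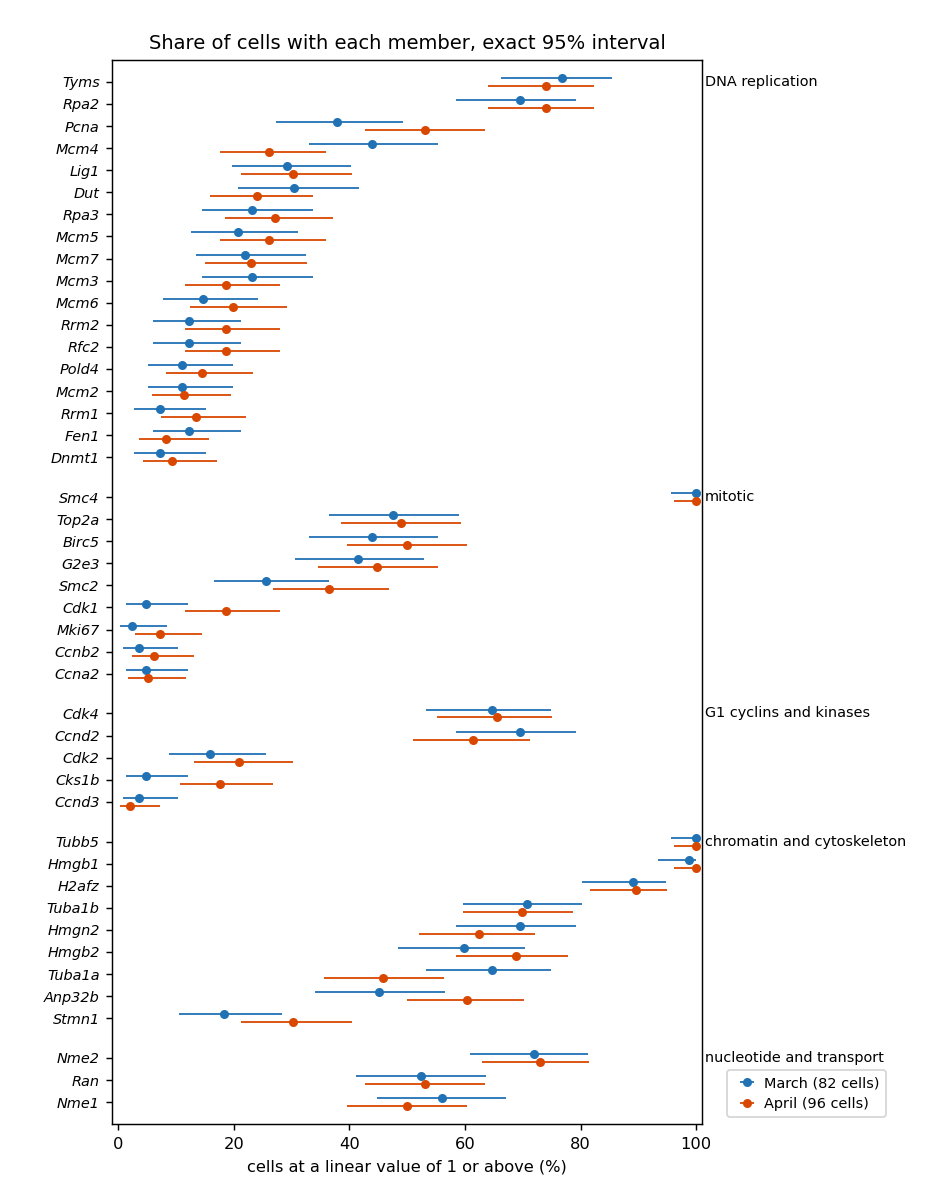
Share of cells with each of the 44 genes at a linear value of 1 or above, on a linear axis in percent, for the March (82 cells) and April (96 cells) captures; points are shares and bars are exact 95% intervals, which cover counting error only. Genes are grouped by role, and Tubb5 and Smc4 stand at 100% while Mki67, Ccnb2, Ccna2 and Ccnd3 lie below 10%.

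Counted per cell, a small set of cells stood apart. A median of 4 of the 18 DNA replication genes were present in a cell, and 169 of 178 cells had 0 to 10. The other 9 cells had 14 to 17, and no cell had 11, 12 or 13. Just below the gap lay 3 cells with 10, all of run Apr13, and 3 cells with 8; just above it lay 4 cells with 14. These 9 cells, 5.06% of all (exact 95% interval 2.34% to 9.38%), are called replication-high below. Because the border was set after the gap was seen, their values are a description with no test. They comprised 5 March cells, all of run Mar17, and 4 April cells, with 2 in each April run, and 0 of 25 cells in Mar1. At the stricter linear value of 10 they had 12 to 17 of the 18 genes present, against 0 to 8 in the other cells. The values of the same 18 genes chose the cells, so this adds no separate support. Of the 26 genes with other roles, which were not counted in choosing them, they had 15 to 25 (median 20), against 6 to 19 (median 12) in the other cells. They also had more genes above 0, a median of 6148 (5368 to 6990) against 5025 (2927 to 6282). At 1 or above they had a median of 4606 genes (3444 to 5386), against 3175 (1817 to 4875). The median gene of the table was present in 33.3% of replication-high and 16.6% of other cells. The part of these differences in the result was not tested.

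**Figure D2:**
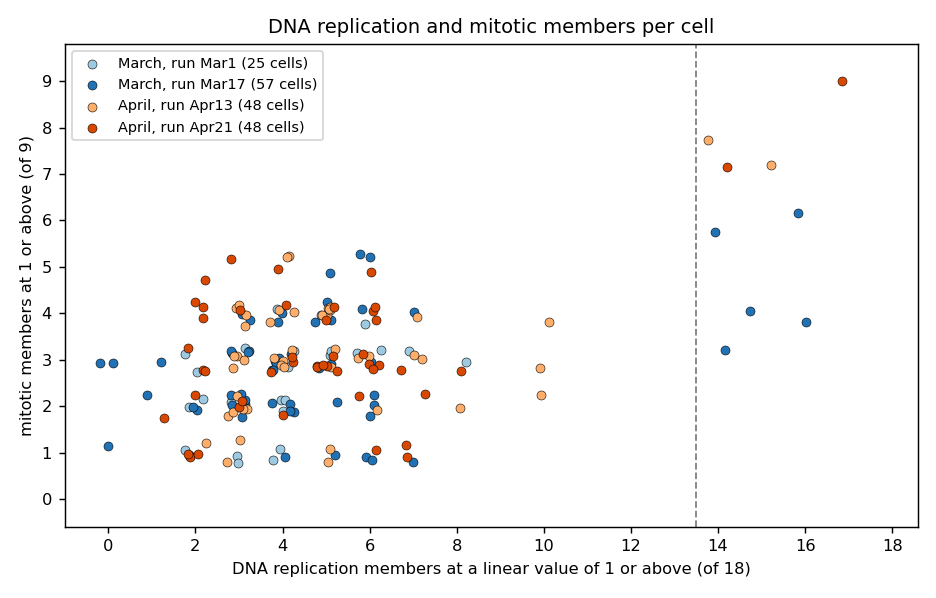
Each point is 1 of 178 cells, placed by the number of DNA replication genes (of 18) and of mitotic genes (of 9) present at a linear value of 1 or above, with small random offsets and coloured by run. The dashed line marks the border at 14: 9 cells lie to its right, and the 4 April cells among them have 7 to 9 mitotic genes while the 5 March cells have 3 to 6.

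In the replication-high cells 17 of the 18 DNA replication genes had a higher mean level than in the other cells of the same capture, in both captures. Their values chose the cells, so the direction is no result, but the sizes differed between genes. Rrm2 had log2 values of 10.11, 9.60, 6.48, 5.54 and 0.00 in the March and 11.32, 10.60, 9.96 and 10.23 in the April replication-high cells, against means of 0.40 and 0.29 in the other March and April cells. One March cell lacked it and the 8 others lay far above the mean of the rest; 8 of the 12 cells with Rrm2 at a linear value of 10 or above were replication-high. Mcm3 was at log2 5.96 to 11.32 in the 9 cells, against a median of 0.21 in the other cells. Pcna was at 4.37 to 11.28, against a median of 0.69, and Mcm7 at 4.32 to 9.94, against a median of 0.00. Mcm7 shares its locus with Ap4m1 and Cops6 on the opposite strand. Mcm3, Mcm4, Mcm5, Mcm7, Pcna, Tyms, Dut and Lig1 were present in 9 of 9 replication-high cells. Tyms and Rpa2 were common elsewhere too: Tyms was also present in 125 and Rpa2 in 121 of the 169 other cells. Pold4 was the exception: it was present in 1 of 9 replication-high cells and 22 of 169 other cells, and its mean level differed by -0.08 in March and -1.11 in April.

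The median Spearman rho over all pairs of the 18 genes was 0.13 over the 82 March cells and 0.11 over the 96 April cells, and 0.02 in each capture once the replication-high cells were left out. These cells were chosen on the same 18 genes, so leaving them out lowers rho by construction. All genes of a cell share its library and depth, and these rho values are descriptions.

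**Figure D3:**
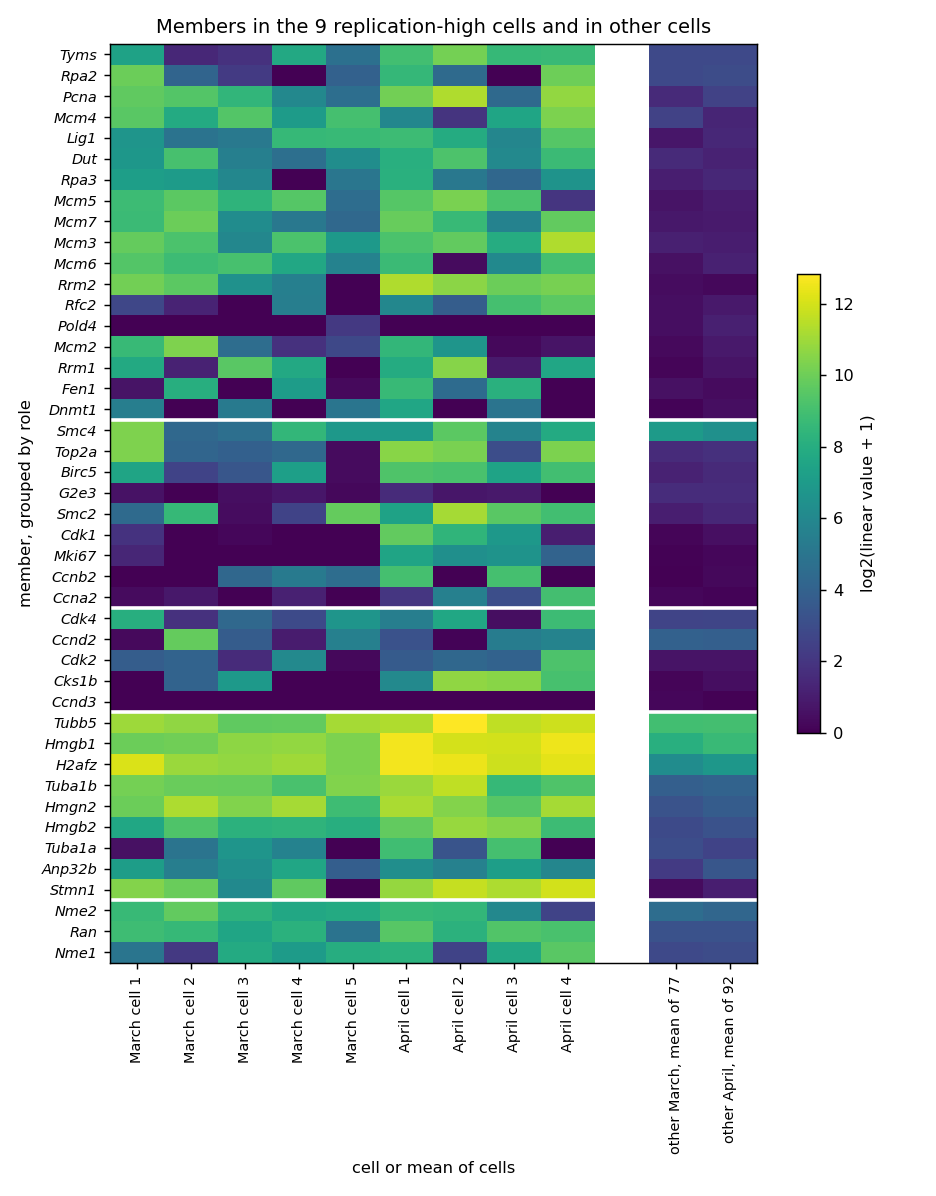
Level of the 44 genes as log2(linear value + 1), colour scale from 0, in the 5 March and 4 April replication-high cells (columns, one cell each) and as the mean over the 77 other March and 92 other April cells. Stmn1, Rrm2 and Mcm3, present in 8, 8 and 9 of the 9 cells, are bright in nearly all of them and dark in the means of the rest, whereas Mki67 and Cdk1 are bright mainly in the April cells.

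The mitotic genes split the replication-high cells by capture. The 5 March cells had 3 to 6 of the 9 mitotic genes present (median 4) and the 4 April cells 7 to 9 (median 7.5), against 1 to 5 (median 3) in the 169 other cells. Mki67 stood at log2 7.51, 6.41, 6.58 and 4.10 in the April replication-high cells and at 1.40, 0.00, 0.00, 0.00 and 0.00 in the March ones, against means of 0.23 and 0.10 in the other April and March cells. The 4 April cells thus all had it and 1 of the 5 March cells did, just above the level of 1. Cdk1 gave 9.76, 8.38, 6.83 and 1.08 in the April and 1.88, 0.00, 0.23, 0.00 and 0.00 in the March replication-high cells, against means of 0.54 and 0.17 in the other April and March cells. Ccnb2, the cyclin partner of Cdk1, did not follow this split: it was at 4.31 to 5.32 in 3 March cells, at 9.04 and 9.05 in 2 April cells, and at 0.00 in the 4 remaining ones. Top2a was present in 8 of 9 replication-high cells (median 4.33) and 78 of 169 other cells (median 0.78). Birc5 was present in 8 of 9 (median 7.44), against 76 of 169 (median 0.85), and Smc2 in 8 of 9 (median 8.58), against 48 of 169 (median 0.00). Smc4, present everywhere, differed by -0.06 in March and 1.07 in April. G2e3 had a lower mean in the replication-high cells in both captures, by -1.20 and -0.80. Over the 9 genes the median difference was 0.28 in March and 5.92 in April, against 0.18 and 0.04 over all genes of the table. Captures carry the same labels, so this difference between them has no test.

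Mki67, Cdk1, Ccnb2 and Ccna2 are the 4 mitotic genes present in the fewest cells, and this choice was made after their values were seen. At least 2 of the 4 were present in 6 cells, and 6 of 6 were replication-high (2 March, 4 April). The 2 March cells met this through low values. These were Mki67 at log2 1.40 and Cdk1 at 1.88 in 1 cell, and Ccna2 at 1.20 beside Ccnb2 at 5.32 in the other. Of these values only that of Ccnb2 lay above a linear value of 10. At least 3 of the 4 genes were present in 4 cells, all April replication-high cells. A single one was enough to admit 37 cells, of which 8 were replication-high. At least 5 of all 9 mitotic genes were present in 15 cells, 6 of them replication-high and 9 other cells. At least 3 mitotic genes were present in 116 of 178 cells (65.2%, exact 95% interval 57.7% to 72.1%), in 57.3% of March and 71.9% of April cells. Smc4, present in every cell, is part of this count. At a linear value of 10 or above the share was 17.4%, so it rests largely on low values. The numbers of DNA replication and mitotic genes per cell had a Spearman rho of 0.36 in March and 0.18 in April, and 0.26 and 0.07 without the replication-high cells.

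All 9 chromatin and cytoskeleton genes had higher means in the replication-high cells in both captures, with median differences of 4.75 in March and 5.51 in April. Stmn1 stood at log2 10.48, 9.90, 6.08, 9.69 and 0.00 in the March and 10.82, 11.70, 11.28 and 11.98 in the April replication-high cells, against means of 0.38 and 1.10 in the other March and April cells. As with Rrm2, the cell without it was the March cell with the fewest genes of the 44. H2afz, the histone variant H2A.Z, was at 10.31 to 12.60 in the 9 cells, against a median of 7.21 in the others. Hmgn2 was at 8.85 to 11.26, against a median of 1.67, Hmgb2 at 7.64 to 10.87, against 2.00, and Tuba1b at 8.60 to 11.59, against 2.09. Each was also present in over 100 of the 169 other cells, where single cells reached 9.66 for Hmgb2 and 12.31 for H2afz, so the groups overlap. Ran, Nme1 and Nme2 were present in 9 of 9 replication-high cells, with Ran averaging 7.61 in March and 9.07 in April, against 3.25 and 3.26 in the other cells.

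The G1 genes did not move as a block. Cdk2 was present in 8 of 9 replication-high cells, against 25 of 169 others, and Cks1b in 6 of 9, against 15 of 169. The mean of Cks1b was 9.10 in April and 2.20 in March replication-high cells, against 0.48 and 0.16 in the other April and March cells. Cdk4 differed by 2.14 in March and 2.93 in April. Ccnd2 differed by 0.12 in March and -0.27 in April, less than its spread over the 9 cells (0.11 to 9.82), and Ccnd3 was present in 0 of 9 replication-high cells and 5 of 169 others.

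Genes of the same processes outside the 44 were read from fixed lists. Of 48 further replication genes, 42 had higher means in the replication-high cells in both captures, with median differences of 2.42 in March and 3.06 in April; over all genes, 4201 of 12432 were higher and 3202 lower in both. Uhrf1, which recruits Dnmt1 to newly made DNA, was present in 9 of 9 replication-high cells and 10 of 169 others. The histone chaperone gene Asf1b and the fork protection gene Tipin were present in 6 of 9 and 8 of 9, against 18 and 20 of 169. Of 40 further mitotic genes 30 were higher in both captures, with median differences of 0.51 in March and 4.36 in April. The gap between captures seen for Mki67 and Cdk1 thus extended to genes that the 44 do not include. It was read in the same 9 cells and is no separate observation. Ckap2l, a spindle protein gene, was present in 5 of 9 replication-high cells and 0 of 169 others, and Tacc3 in 5 of 9 and 5 of 169. Of 8 further drivers of G1, 4 were higher in both captures, among them Cdk6 (by 4.94 in March and 2.86 in April) and cyclin E1, Ccne1 (by 3.08 and 3.21). Of 18 inhibitors and quiescence genes 8 were higher and 6 lower in both captures. The 8 included the retinoblastoma gene Rb1 (2.22 in March and 1.40 in April), the pocket protein gene Rbl1 (1.63 and 1.02), E2f4, which encodes an E2F factor of repressor complexes (2.73 and 1.27), and the transcription factor Foxo1 (1.63 and 0.53). The 6 included the antiproliferative gene Btg1 (-1.49 in March and -1.98 in April), Cdkn1b, which encodes the kinase inhibitor p27 (-2.78 and -1.01), the transcription factor Foxo3 (-1.50 and -0.64) and the pocket protein gene Rbl2 (-0.41 and -0.96).

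Of 6 T cell markers, 5 to 6 were present in each replication-high cell and 4 to 6 in each other cell. In the replication-high cells 6 of the 6 had a higher mean in March and 3 of 6 in April (median differences of 1.75 and -0.03), where Cd4 differed by -2.07 and Cd3g by -1.17. The 3 B cell markers of the table had lower means in both captures, and their summed linear level was 1.01 to 5.31 in replication-high and 0.283 to 1651 in other cells; Ebf1 was present in 7 of 9 and 151 of 169, Cd22 in 2 of 9 and 73 of 169, and Pax5 in 0 of 9 and 25 of 169. The 3 CD8 or NK cell markers summed to 0 to 301 in replication-high and 0 to 1654 in other cells, with 2 of the 3 (Cd8a and Cd8b1) higher in both captures, by 0.51 and 0.89 and by 1.73 and 0.13 in March and April, and Klrb1c present in 0 of 9. Cd8b1 was present in 3 of 9 replication-high and 32 of 169 other cells, and Cd8a in 2 of 9 and 10 of 169. The 2 myeloid markers summed to 0 to 4.61 and 0 to 255, with Csf1r present in 0 of 9 and Itgam in 3 of 9 replication-high and 69 of 169 other cells. The part of these markers in the result was not tested. Mitochondrial genes held 3.89% to 8.13% of the signal in replication-high cells and 1.26% to 93.9% in the others.

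To ask which other genes go with DNA replication on a class set by a rule instead of by the gap, cells were ranked within each capture by the number of DNA replication genes present, and at most the top 25% was taken, with ties at the border going to the rest. This gave 9 March and 16 April cells with 7 or more of the 18 genes, called S-phase-rich, against 73 and 80 other cells with 6 or fewer; 10 cells lay at 7 and 25 at 6. The 9 replication-high cells are among them, and the remaining cells of the class had 7 to 10 of the 18 genes. The name stands for a range of this count and not for a cell type. Whether these cells were in S phase was not tested. The 18 DNA replication genes were left out, and limma was run over 10777 genes on the mean log2 values of the 4 sets of cells with the capture as a block. With Benjamini-Hochberg adjustment over all genes, 34 genes (0.315%) passed an adjusted p of 0.05, 34 of them higher and 0 lower in S-phase-rich cells. Of the 26 remaining genes of the 44, 3 passed, and all were chromatin and cytoskeleton genes. The 44 genes, their role groups and the fixed lists were chosen with earlier results of these data known. How many of them passed is therefore a description and no independent support.

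Stmn1 (chr4:134468320-134473843, plus strand) averaged log2 4.02 in March and 5.83 in April S-phase-rich cells, against 0.40 and 0.67 in the other March and April cells, and rose by 4.39 ± 0.63 (SE, limma adjusted p = 0.000671). Hmgn2 (chr4:133964738-133968650, minus strand) averaged 7.63 and 6.46 in S-phase-rich cells, against 3.25 and 3.52, and rose by 3.66 ± 0.67 (adjusted p = 0.00693). Hmgb2 (chr8:57511907-57515999, plus strand) averaged 6.13 and 5.70, against 2.84 and 3.10, and rose by 2.94 ± 0.66 (adjusted p = 0.0374). For each of the 3 genes both captures gave a difference above 2, an agreement that picking by small p favours. These are differences of mean log2 values with cells at 0 included, and not folds.

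The other 23 genes did not pass the adjustment. At an unadjusted p under 0.05, 18 of the 26 were higher and 0 lower, against 12.2% of all genes tested (1177 higher, 143 lower); in S-phase-rich cells the median of all genes was itself 0.18 higher, and the median of the 26 genes 1.52 higher. By role the 18 were 7 of 9 chromatin and cytoskeleton genes, 7 of 9 mitotic genes, 2 of 5 G1 genes and 2 of 3 nucleotide and transport genes. Tuba1b had a difference of 2.66 (limma adjusted p = 0.0721), Anp32b of 2.49 (0.0827), Cks1b of 2.06 (0.0922) and Ran of 2.34 (0.0992). Of the mitotic genes the smallest p belonged to Ccnb2, at 1.58 (adjusted p = 0.101), followed by Top2a, at 1.98 (0.153). G2e3 was on the lower side in both captures, at -0.58 in March and -0.57 in April. Tuba1a and Ccnd2 had opposite signs in the captures.

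**Figure D4:**
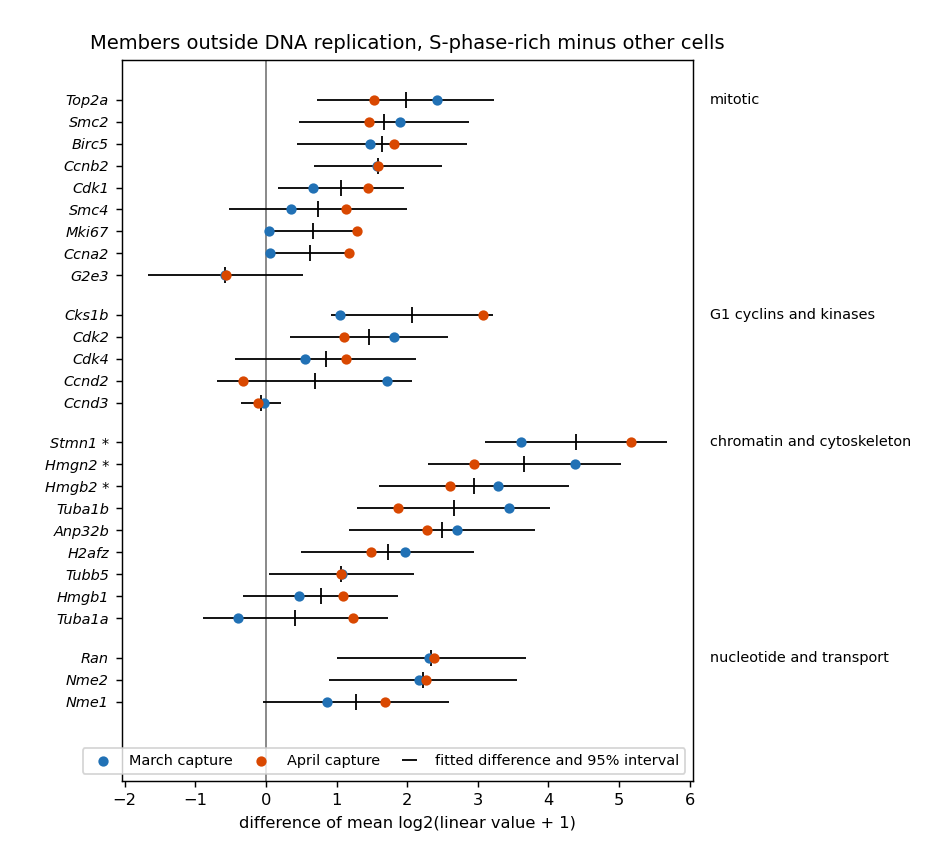
Difference of mean log2(linear value + 1) between S-phase-rich and other cells for the 26 genes outside the DNA replication group, by role; coloured points are the March and April captures, ticks and bars the limma difference and its 95% interval, and * marks adjusted p under 0.05. Stmn1, Hmgn2 and Hmgb2 carry the mark, and G2e3 and Ccnd3 alone have a fitted difference below 0.

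From the fixed lists, 2 of 43 further replication genes passed the same threshold, Uhrf1 (rose by 3.34 ± 0.59, adjusted p = 0.00527) and Tipin (rose by 2.79 ± 0.59, limma adjusted p = 0.0243), with Rfc4 next (2.43, adjusted p = 0.0721). None of 31 further mitotic genes passed in the limma fit (18 higher and 0 lower at an unadjusted p under 0.05; the smallest p were those of Tacc3, Mad2l1 and Cdca3), nor did any of 16 inhibitors (2 higher, E2f4 and Rb1, and 2 lower, among them Lin52) or of 7 G1 drivers (2 higher, Cdk6 and Ccne1, with Tfdp1 next). Outside the cell cycle lists the 34 genes included Txn1, the redox protein thioredoxin, at a difference of 4.46 ± 0.65 (adjusted p = 0.000671), and the interferon-inducible gene Ifi27l2a at 3.31 ± 0.54 (0.00298). Dbi (an acyl-CoA binding protein), Srp19 (signal recognition particle), Hprt (purine salvage), Ndufa2 (respiratory complex I), Arhgdia, Gm5940 and Rpp21 (a ribonuclease P subunit) followed, with differences of 3.19 to 3.87. No gene passed on the lower side, where Frmd4b came nearest (-2.56, adjusted p = 0.0668), followed by Rab4b, Gm11808, Gm10042 and Klhdc1.

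These calls changed when the replication-high cells were left out and with the form of the fit. The replication-high cells were 5 of the 9 March and 4 of the 16 April S-phase-rich cells. Leaving them out thus also makes the class smaller and takes away its highest counts. Without the 9 cells 2 of 10709 genes passed and 0 of 25 members, with Stmn1 at 1.45 (limma adjusted p = 0.753), and 0 genes passed without the capture as a block, with the 4 runs as blocks, on averaged linear values, with a class border nearer the median, with counts above 0, or with the number of genes detected regressed out (smallest adjusted p = 0.0551). S-phase-rich cells had medians of 5596 genes above 0 in March and 5445.5 in April, against 5294 and 4921.5 in the other March and April cells.

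Klf2 was present in 53 of 178 cells, 27 in March and 26 in April. It was present in 2 of 9 replication-high cells (22.2%, exact 95% interval 2.81% to 60.0%) and in 51 of 169 other cells (30.2%, 23.4% to 37.7%). These intervals cover counting error only, and the groups were not compared by a test. The replication-high cells with Klf2 were 2 of 4 in April and 0 of 5 in March. Their Klf2 levels of log2 3.81 and 1.86 lay within the range of the other April cells (0 to 9.56). Among S-phase-rich cells Klf2 was present in 3 of 9 March and 5 of 16 April cells, against 24 of 73 and 21 of 80 other cells. Across cells the Spearman rho between the Klf2 level and the number of DNA replication genes was 0.06 in March and -0.09 in April, and with mitotic genes 0.08 and -0.10, so the sign differed between captures. Klf2-high cells had a median of 4 DNA replication genes present in each capture, against 4 in March and 4.5 in April in the other cells.

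**Figure D5:**
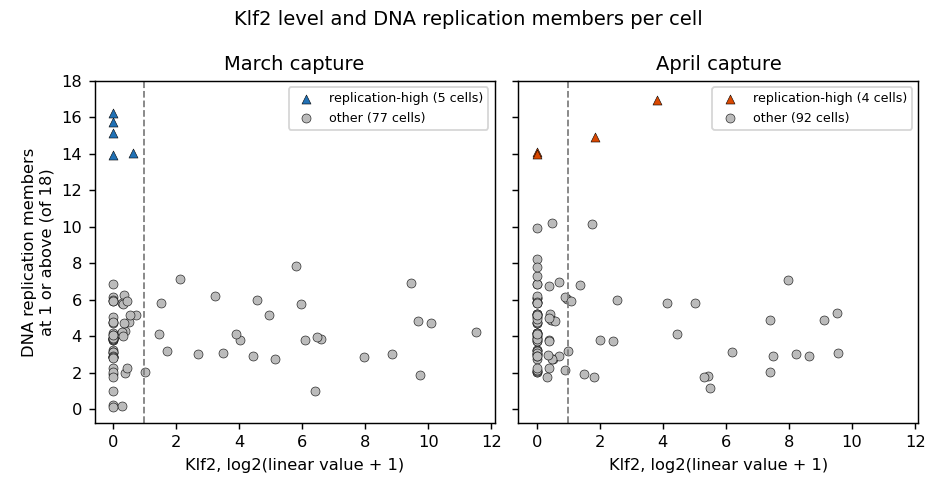
Klf2 level as log2(linear value + 1) against the number of DNA replication genes present (of 18, with small vertical offsets) in each cell of the March and April captures; triangles are replication-high cells, grey points the other cells, and the dashed line marks a linear value of 1. The 9 triangles lie between 0 and 3.81 on the Klf2 axis, and no cell with more Klf2 than that has over 8 DNA replication genes present.

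The same limma fit was run between the 53 Klf2-high cells and the other 125, leaving out Klf2. It called 0 of 10794 genes (0%) at an adjusted p of 0.05, with 738 genes (6.84%) at an unadjusted p under 0.05, of which 265 were higher and 473 lower. Of the 44 genes 5 were at an unadjusted p under 0.05 and 0 passed. Fen1 averaged 1.26 in March and 1.12 in April Klf2-high cells, against 0.50 and 0.36 in the other March and April cells, a difference of 0.76 ± 0.29 (SE, limma adjusted p = 0.599). Fen1 lies over Tmem258 on the opposite strand. Mcm6 averaged 0.32 and 0.96, against 1.41 and 1.56, a difference of -0.85 ± 0.34 (adjusted p = 0.621). Nme1 averaged 2.53 and 1.94, against 3.27 and 3.57, a difference of -1.19 ± 0.48 (0.635), while its neighbour Nme2 differed by 0.99 ± 0.55 (0.785) the other way. Cdk1 differed by 0.58 ± 0.25 (limma adjusted p = 0.646) and Lig1 by -0.80 ± 0.36 (0.704). Each of these 6 genes had the same sign in both captures, as did 24 of the 44. The 6 were picked by smallest p, which favours captures that agree, so their shared sign is no support. The share over all genes is not given here. The median difference was -0.03 over the 18 DNA replication genes (-0.45 in March and 0.28 in April) and 0.14 over the mitotic genes (-0.08 in March and 0.06 in April), against -0.03 over all genes.

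The fixed lists gave 0 calls in the Klf2 fit by limma. At an unadjusted p under 0.05 there were 1 higher and 4 lower of 43 further replication genes, the smallest p being those of Pold2 (-0.58), Rfc3 (-0.43) and Pole3 (-0.40). Of 31 further mitotic genes 2 were higher, Kif23 (0.38) and Kif20b (0.44). Of 16 inhibitors 2 were higher, Foxo3 (0.88) and Slfn2, a gene of T cell quiescence (1.14), and 1 lower, Tob2 (-0.90), and of 7 G1 drivers 0 reached that level, Tfdp1 coming nearest (0.73). Among all other genes, those with the smallest p included Gm8995, Thra, Rasa3 and Gvin1 on the higher side and, on the lower side, Slc41a1, Trbj2-4, Bcl2a1b, Nlk and Ndufaf3, with an adjusted p of 0.478.

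The genes whose level went most closely with the number of DNA replication genes per cell were ranked among 4089 genes present in at least 25% of cells of each capture, by the lower of the Spearman rho of the 82 March and the 96 April cells. Nutf2, a nuclear transport factor that carries Ran, came first (0.28 in March and 0.35 in April). Mbnl3 and Mbnl1, both splicing regulators, the histone chaperone Nasp, Phpt1, Vps36, Ndufb5, Trip12, Alyref and Cep85 followed, with lower rho values of 0.25 to 0.28. Without the replication-high cells Nutf2 was at 0.22 and 0.26 and Nasp at 0.16 and 0.23. These are weak correlations across cells that share depth: the number of genes above 0 had itself a rho of 0.27 and 0.30 with the number of DNA replication genes.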

How the data were processed

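The series gave 1 table of log2 values for 12432 genes in 178 cells of 2 captures, deposited by the authors. Per the submitters' processing notes the genome build is mm10; no source used here names the aligner, the counting program or the strand setting. The authors' log2 values were read as log2(linear value + 1) from their sums per cell; 36.6% of the nonzero values were under 1 on the linear scale, and the smallest nonzero value of a gene fell with its exon length (Spearman rho -0.58 over 12163 genes), so levels were taken as per length. Low values can be model estimates. The level of 1 or above for presence was fixed together with the list of genes. Ensembl IDs were matched to symbols for 12163 genes, coordinates come from GENCODE M21, promoter sequences from RefSeq GRCm38.p6. Columns mapped to no sample numbered 0. Cells are not replicates: class comparisons used the mean log2 value per capture and class (4 sets of cells) in limma 3.58.1 (R 4.3.3) with a mean-variance trend, the capture as a block, genes above 0 in at least 10% of cells, two-sided, Benjamini-Hochberg adjustment at 0.05. With 1 residual degree of freedom the test leans on the spread shared by genes. Tested on simulated data, it recovered large planted shifts, and somewhat more unshifted genes passed than the threshold allows. Captures were not compared by a test. Intervals are exact Clopper-Pearson 95% and cover counting error only. No doublet caller was run. Python 3.11.15, pandas 2.3.3, numpy 2.4.6, SciPy 1.17.1 and matplotlib 3.10.9 were used.

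The 44 genes, the role groups and the lists were chosen with earlier results of these data known. Genes named in full were, per comparison, members past the threshold or else the 6 with the smallest p; of other genes, up to 10 per direction past the threshold or 5 with the smallest p, up to 3 per list, and the 10 with the highest rank correlation with the number of DNA replication genes. The replication-high cells, further members given with values in them, and further list genes were picked after their values were seen. Alternatives covered pseudocount, filter, normalization, blocks, averaging, class borders and cells.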

Additional observations from a re-analysis of the deposited data

How the results depend on the processing

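In the Klf2 comparison 0 genes passed under each of the 11 alternatives with a test. The median of all genes in that fit shifted to -0.25 on averaged linear values. The median difference there moved to -0.90 on averaged linear values over the DNA replication members (-0.03 as reported) and to 0.57 over the mitotic members (0.14), which were at -0.07 with Klf2 above 0 against 0 and -0.01 with Klf2 at a linear 1 or above against 0. In the S-phase-rich comparison the 34 calls (3 members) became 64 without a filter on low values, 22 with quantile normalization, and 0 (0 members) without the replicate block, with the 4 runs as blocks, on averaged linear values, with the class border moved to the median, with members regressed on genes detected and with members counted above 0. Without the replication-high cells, an alternative chosen after seeing the data, 2 genes and 0 members passed. The pseudocount of 10 gave 36 calls and leaving out the mitochondrial cells 41. The median of all genes was 0.18 in the main S-phase-rich fit, -0.08 with quantile normalization and -0.43 on averaged linear values. Stmn1, Hmgn2 and Hmgb2 kept their direction under each alternative, with differences of 1.45 to 5.85 for Stmn1 and lowest differences of 1.0 for Hmgn2 and 0.85 for Hmgb2. With 1 capture left out no test could be run. The median DNA replication genes per cell were 4, 7 when counted above 0 and 2 at a linear value of 10 or above, and 4 to 4 with a capture left out. The share of cells with at least 3 mitotic genes was 65.2%, 93.3% above 0 and 17.4% at 10 or above, and 57.3% to 71.9% with a capture left out. At the border of 14 genes, counting at 10 or above left 4 of the 9 replication-high cells. The causes were not tested. Read depth per cell is unknown, and 9 replication-high cells from 2 captures limit what can be said about them.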
